A study of Mus musculus with 6 samples.

Results

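The genes described here encode proteins that show peptides to T cells on major histocompatibility complex (MHC) molecules. They are H2-Aa, H2-Ab1, H2-Eb1, H2-DMa and Cd74 of the class II pathway, and H2-K1, H2-D1, B2m, Tap1 and Tapbp of the class I pathway. The members are all probe sets that the platform annotation assigns to exactly 1 of these 10 symbols, 18 of the 12488 probe sets on the array, whose probe sets with a single symbol name 8251 genes. Of the 18, 6 belong to the class II pathway and 12 to the class I pathway. Total RNA of the pancreas was hybridised to 6 one-colour arrays, each with the RNA of 1 male mouse. The 3 control mice were CFTR+/+ and the 3 CF mice CFTR-/-, CFTR being the epithelial anion channel that is lost in cystic fibrosis. All 6 mice were gastrin+/-, aged 56, 57 or 58 days, of a mostly black6 background with some 129Sv, and were fed Peptamen to keep the intestine from becoming blocked. The question for these genes is whether their transcripts differ in the pancreas between mice with and without CFTR.

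Class II molecules are pairs of an alpha and a beta chain that carry peptides from the endosomal pathway and are made mainly by B cells, macrophages and dendritic cells. Class I molecules are a heavy chain bound to beta-2 microglobulin, carry peptides from the cytosol and are made by nearly all nucleated cells. Interferon gamma induces both pathways, class II through the coactivator Ciita, which acts at a pair of promoter elements called the X box and the Y box. In RNA of a whole pancreas, fewer cells of a type and less RNA per cell cannot be told apart.

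The upstream sequences of 5 members are shown because they hold motifs known from the control of genes of these pathways. The members do not all share the motifs in the forms searched for, and the part of any motif in the levels on the arrays was not tested. The stretches are RefSeq sequences of assembly GRCm38.p6, given 5′ to 3′ on the gene's strand. Capitals mark the Y box core in either orientation, the X box core where a Y box core follows it, and the kappa B motif. Capitals also mark the interferon-stimulated response element, but only in the form that was searched for. Other forms of this element and of the X box stay in lower case, so lower case does not show that a promoter lacks them. Positions count back from the start site, with -1 the base before it.
H2-Aa, -120 to -21, chr17:34287844-34287943, minus strand: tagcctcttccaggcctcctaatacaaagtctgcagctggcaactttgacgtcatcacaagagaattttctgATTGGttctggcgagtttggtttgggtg
H2-Eb1, -120 to -21, chr17:34305747-34305846, plus strand: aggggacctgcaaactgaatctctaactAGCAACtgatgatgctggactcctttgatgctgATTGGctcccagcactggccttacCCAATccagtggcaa
H2-K1, -150 to -1, chr17:34000348-34000497, minus strand: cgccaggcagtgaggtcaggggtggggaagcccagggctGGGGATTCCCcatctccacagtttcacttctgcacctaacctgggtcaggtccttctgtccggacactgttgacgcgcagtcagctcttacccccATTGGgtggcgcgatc
H2-D1, -200 to -41, chr17:35262894-35263053, plus strand: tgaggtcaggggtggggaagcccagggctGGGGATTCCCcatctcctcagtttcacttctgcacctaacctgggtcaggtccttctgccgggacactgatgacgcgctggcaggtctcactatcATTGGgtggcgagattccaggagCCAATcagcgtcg
B2m, -150 to -31, chr2:122147537-122147656, plus strand: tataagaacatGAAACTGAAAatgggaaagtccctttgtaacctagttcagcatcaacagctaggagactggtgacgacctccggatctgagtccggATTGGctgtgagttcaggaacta

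Promoters of 8 members were searched on both strands over windows of 300 bases. Those of the other members, the class II pathway genes H2-Ab1 and Cd74, were not searched. The Y box core CCAAT, which reads ATTGG on the other strand, was present in some window of all 8 and in 37.4% of the 32851 windows in the RefSeq table. The count of 8 is by gene and the share is by window. Some members had several start sites, and H2-DMa held the core only at start site 2. The X box core AGNAAC followed by ATTGG after 15 to 35 bases, a pair that overlaps the Y box search, was present in 1.1% of all windows. Among the 8 members searched only H2-Eb1 held this pair, from -92 to -55. The H2-Aa window held the Y box core at -48 without any match to AGNAAC. Other forms of the X box were not searched for, so the search cannot show that H2-Aa lacks an X box. The kappa B motif marked in H2-K1 and H2-D1 lay at -111 and -171 and was found in 0.262% of windows. The form of the interferon-stimulated response element that was searched for is marked in B2m, lay at -139 and was found in 3.44% of windows. Whether H2-K1 and H2-D1 hold another form of this element was not tested. The pair of X and Y boxes was also present in 4 class II genes outside the members, H2-Oa, H2-Ob, H2-DMb1 and H2-Eb2. The stretches of H2-Oa, H2-Ob and H2-DMb1 are shown for comparison with H2-Eb1.
H2-Oa, -77 to -39, chr17:34092302-34092340, plus strand: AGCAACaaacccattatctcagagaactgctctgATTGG
H2-Ob, -88 to -53, chr17:34238817-34238852, plus strand: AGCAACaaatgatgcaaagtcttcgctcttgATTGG
H2-DMb1, -95 to -57, chr17:34153096-34153134, plus strand: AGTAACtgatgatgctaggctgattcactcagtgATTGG

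None of the 17 member probe sets that were bright enough to test passed between CF and control pancreas. The range among the 3 control mice was wider than the difference between the groups for 16 of the 17, and for 83.2% of all tested probe sets. All values are intensities on a linear scale, and differences are CF minus control on a log2 scale with dim values raised to a floor of 47.6. At an adjusted p under 0.05 in limma, 0 of 17 member probe sets were called, against 5 of all 7739 tested probe sets (0.0646%). At an unadjusted p under 0.05 it was 1 of 17, against 7.38% of all tested. That 1 was the H2-K1 probe set 97700_at, which entered the test through its CF arrays alone and had to differ. Of the 17, 13 pointed lower in CF and 4 higher, and the median difference was -0.27, beside 0.001 over all tested probe sets. The median was -0.31 for the 5 tested class II probe sets and -0.25 for the 12 class I probe sets. Each group held 3 arrays, and that number limits the precision of every value.

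**Figure D1:**
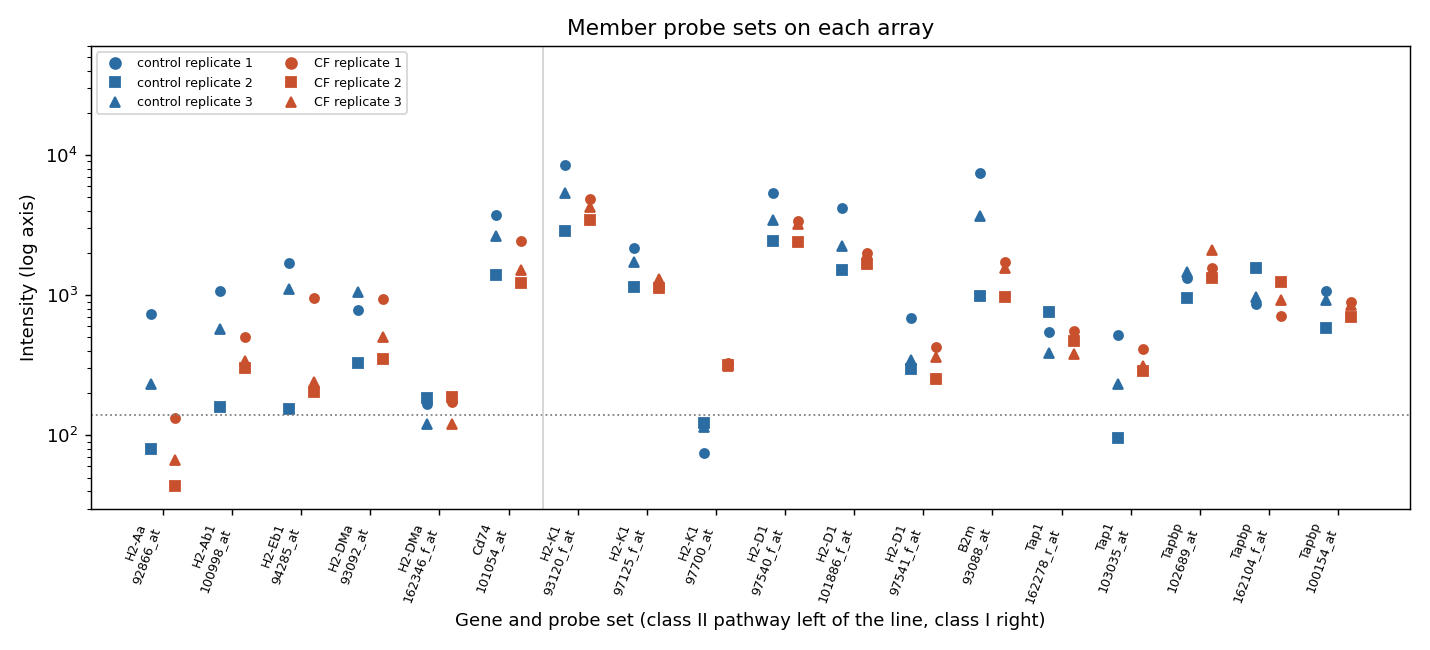
Intensity (log axis) of each of the 18 member probe sets on the 6 arrays, with control arrays in blue, CF arrays in orange-red, and 1 marker shape for each replicate number; the dotted line is the brightness limit of the test, 140.2. The circles and triangles of the controls lie above their square in most class II and heavy chain probe sets, and the H2-K1 probe set 97700_at is the only one whose groups do not overlap.

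The class II chain genes varied up to 10.98-fold among the control mice. H2-Eb1, the beta chain of the E molecule, measured 1691.7, 154.1 and 1106.7 in the controls, given here and below in the order of replicates 1 to 3, and 960.6, 204.6 and 242 in the CF mice. The lowest and the highest of the 6 arrays were thus both controls, and CF replicate 1 lay far above the other CF arrays. The difference was -0.87 ± 0.89 (SE, n = 3 per group, adjusted p = 0.88), with a 95% interval from -2.89 to 1.15. H2-Ab1, the beta chain of the A molecule, measured 1067.5, 160 and 571.4 in controls and 501.6, 302.9 and 339.2 in CF, a difference of -0.31 ± 0.61 (adjusted p = 0.95). All CF values of H2-Ab1 fell between those of control replicates 2 and 3.

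H2-Aa, the alpha chain that pairs with H2-Ab1, measured 737.4, 79.4 and 231.9 in controls and 132.1, 43.8 and 67.2 in CF. Only control replicates 1 and 3 exceeded the brightness limit of 140.2, so H2-Aa was the single member probe set left out of the test. Each CF array was below the control array of the same replicate number, but CF replicate 1 was above control replicate 2. In a fit with no brightness limit, over 12422 probe sets, H2-Aa differed by -1.67 ± 0.94 (adjusted p = 0.85).

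Cd74, the invariant chain that guides class II molecules to the endosome, showed a narrower range than H2-Eb1 in the same arrays. It measured 3737, 1385 and 2654.3 in controls and 2435.8, 1215 and 1507.6 in CF, so that each CF array was below the control of its replicate number while the groups overlapped. The difference was -0.54 ± 0.38 (adjusted p = 0.81). H2-DMa, a chain of the molecule that exchanges peptides on class II, measured 789.2, 330.4 and 1056.4 in controls and 939.2, 349.5 and 506.6 in CF on its probe set 93092_at (-0.24 ± 0.48, adjusted p = 0.95). Its second, dimmer probe set 162346_f_at ranged from 120 to 185.2 in controls and from 120 to 187.2 in CF (0.03 ± 0.41, adjusted p = 0.995), and did not run in parallel with the first.

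Among class I genes, B2m, which encodes the light chain shared by all class I heavy chains, had the lowest difference of any tested member. It measured 7441.1, 979.9 and 3679.9 in controls and 1723.3, 964.7 and 1568.9 in CF, or 4034 ± 3245 against 1419 ± 401 (mean ± SD). Every CF array was below the control array of its replicate number, by little for replicate 2, and control replicate 2 was close to the lowest CF array. The difference was -1.12 ± 0.62 (adjusted p = 0.74). Leaving out control replicate 1 gave -0.46, and leaving out control replicate 2 gave -1.93 (adjusted p = 0.13).

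The heavy chain genes H2-K1 and H2-D1 were read by 3 probe sets each, of which 5 of 6 carry the suffix f, used for probe sets that match several related sequences. These values may therefore include other class I genes. The brightest H2-K1 probe set, 93120_f_at, measured 8483, 2866.4 and 5401.2 in controls and 4881.3, 3430 and 4278.4 in CF (-0.29 ± 0.35, adjusted p = 0.90). Control replicates 1 and 2 were again the highest and lowest arrays. The second, 97125_f_at, measured 2182, 1151.5 and 1716 in controls and 1145.3, 1128.3 and 1311.8 in CF (-0.45 ± 0.24, adjusted p = 0.73). For H2-D1 the probe set 97540_f_at measured 5384.1, 2447.5 and 3459.5 in controls and 3378.1, 2411.9 and 3228 in CF (-0.27 ± 0.28, adjusted p = 0.88). The other H2-D1 probe sets differed by -0.37 ± 0.33 and -0.28 ± 0.37, with overlapping groups in both.

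The third H2-K1 probe set, 97700_at, went the other way from the rest of the gene. It measured 75.4, 122.7 and 114.6 in controls and 330.6, 318.4 and 313.6 in CF, so that every CF array was above every control array and the 3 CF values lay close together. No control array reached 140.2 on this probe set, so it entered the test through its CF values alone and had to differ. Its difference, 1.65 ± 0.37 on the floored log2 scale (adjusted p = 0.22), is therefore given as a description. It was 1 of 17 member probe sets with groups that did not overlap and CF higher, against 7.37% of all tested probe sets. With CF lower it was 0 of 17, against 5.62% of all. The annotation lists no accession for this probe set, and the sources used here do not say which part of the H2-K1 transcript it reads.

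Genes that load peptides onto class I molecules disagreed between their probe sets. Tap1, a subunit of the transporter that moves peptides into the endoplasmic reticulum, measured 521.9, 95.5 and 232.5 in controls and 413.1, 286.6 and 311.6 in CF on 103035_at (0.56 ± 0.56, adjusted p = 0.88). On 162278_r_at it measured 543.5, 755.6 and 390 in controls and 551.4, 471.2 and 383.1 in CF (-0.23 ± 0.29, adjusted p = 0.91). Control replicate 2 was the lowest array on the first of these and the highest on the second. Tapbp, or tapasin, which holds class I molecules at that transporter, measured 1326.3, 952.4 and 1454.6 in controls and 1554.1, 1331.6 and 2096.7 in CF on 102689_at (0.41 ± 0.24, adjusted p = 0.75). Its other probe sets differed by -0.22 ± 0.29 on 162104_f_at and -0.04 ± 0.26 on 100154_at, with no agreement in direction across the 3 probe sets.

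**Figure D2:**
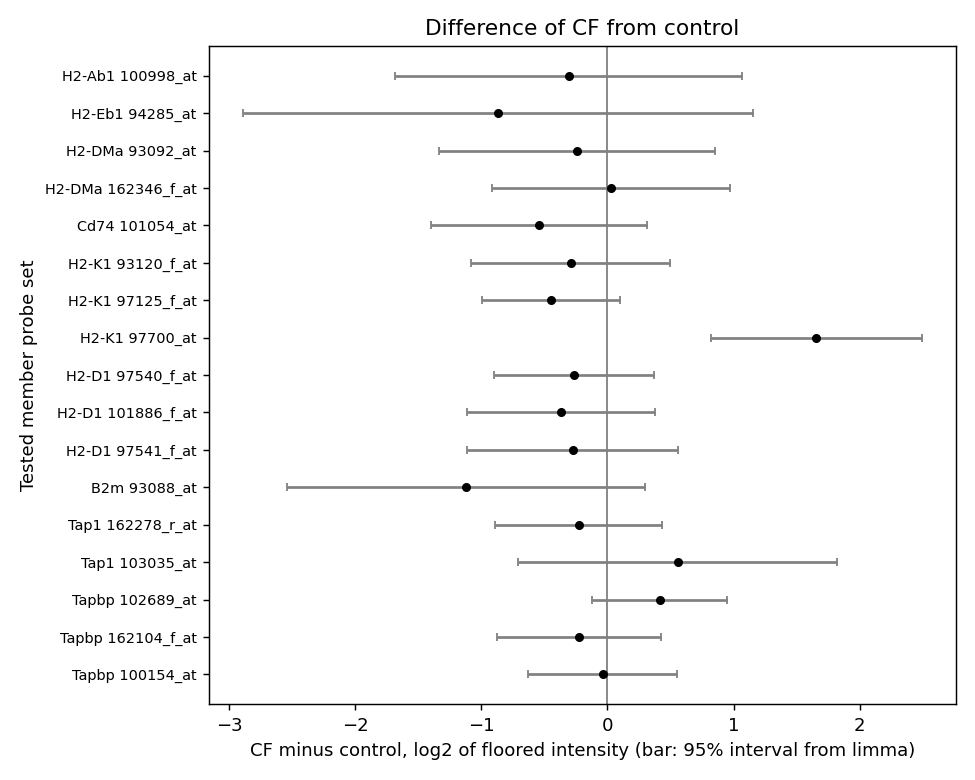
Difference of CF from control (log2 of floored intensity) for the 17 tested member probe sets, with bars for the 95% interval from limma. Only the interval of the H2-K1 probe set 97700_at, 0.82 to 2.49, lies away from 0, but this probe set entered the test through its CF arrays alone, and it did not pass after adjustment over all 7739.

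On the member probe sets, controls spread more widely than CF arrays. The ratio of highest to lowest control array exceeded that of the CF arrays in 16 of 18 member probe sets. It was over 2 in 11 of the 18 for controls and in 4 for CF. The same counts over all probe sets are not given here, so this spread cannot be called particular to the members. Control replicate 1 was the highest of all 6 arrays on 11 of the 17 tested member probe sets, against 15.3% of all tested probe sets. Control replicate 2 was the lowest on 8 of the 17, against 22% of all. The medians moved with the array left out. Leaving out control replicate 2 gave a class II median of -0.94 and a class I median of -0.41, and leaving out control replicate 1 gave -0.10 and 0.06. The class II median was -0.63 without CF replicate 1, -0.16 without control replicate 3, -0.16 without CF replicate 2 and -0.24 without CF replicate 3. The array of control replicate 1 is the one whose label speaks of the entire pancreas. The Gapdh 3′/5′ signal ratio, a sign of RNA quality, was 1.45 on control replicate 2 and 0.72 to 0.87 on the other 5 arrays. The same ratio for Actb did not set control replicate 2 apart. It was 2.16 there, 2.14 on CF replicate 2 and 1.74 to 1.94 on the remaining arrays. The part of the label or of RNA quality in these values was not tested.

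**Figure D3:**
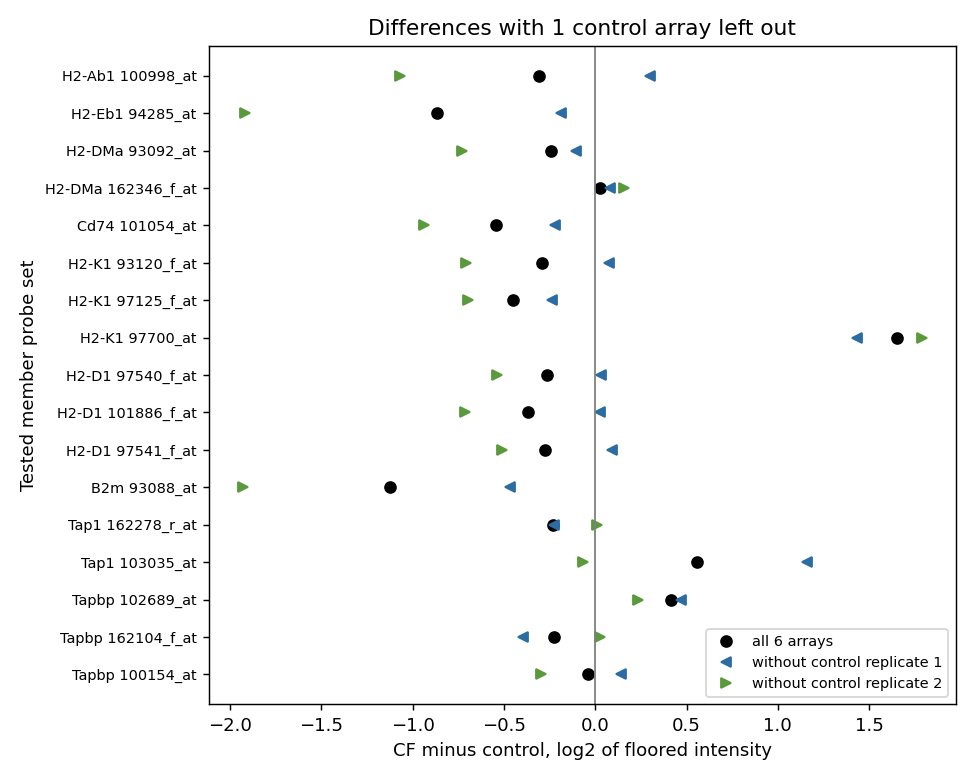
Difference of CF from control (log2 of floored intensity) for each tested member probe set with all 6 arrays (black), without control replicate 1 (blue) and without control replicate 2 (green). For H2-Eb1 the difference ran from -1.92 without control replicate 2 to -0.19 without control replicate 1, and for H2-Ab1 from -1.07 to 0.30.

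The replicate numbers come from title suffixes that the groups share, and CF was compared with control within these 3 pairs. Cd74, B2m, H2-K1 97125_f_at, H2-D1 97540_f_at and Tapbp 162104_f_at were lower in CF in 3 of 3 pairs. This is 5 of the 17 tested member probe sets, while 17.5% of all tested probe sets were lower in 3 of 3 pairs. H2-K1 97700_at and Tapbp 102689_at were higher in all pairs, 2 of the 17 against 17.8% of all. H2-K1 97700_at entered the test through its CF values alone, so its direction in the pairs was fixed beforehand. H2-Eb1, H2-Ab1 and the brightest H2-K1 probe set were lower in 2 pairs and higher in the pair of replicate 2.

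Most class II probe sets followed a similar order of arrays that did not follow genotype. Averaged over the 5 tested class II probe sets, the log2 deviation from the mean of 6 arrays came to 0.91, -0.83 and 0.50 for the controls and to 0.47, -0.59 and -0.46 for the CF mice. CF replicate 1 thus lay beside control replicate 3, and control replicate 2 was below every CF array. For the class I probe sets the same average was 0.49, -0.43 and 0.03 in controls and 0.09, -0.20 and 0.03 in CF, a narrower range. As a description over 6 arrays that share their scaling, the correlation of H2-Eb1 with the mean of the other class II probe sets was 0.995, and that of Cd74 0.96. H2-Ab1 was at 0.906 and H2-DMa at 0.858 on 93092_at, but H2-DMa was at -0.28 on 162346_f_at. Of the 12 class I probe sets, 6 correlated with the class II mean at 0.8 or more, among them B2m at 0.895 and H2-K1 93120_f_at at 0.93. Tapbp 162104_f_at and H2-K1 97700_at were at -0.77 and -0.43.

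Outside the members, the 8 genes whose levels were most like the class II mean over the 6 arrays had correlations of 0.98 to 0.99. These 8 genes were picked as the highest among the tested probe sets, so high values follow from the choice. They include Apoe, the apolipoprotein that macrophages secrete, with control levels of 4345, 148.7 and 1387.7 and CF levels of 1448, 172.1 and 187.6. Cxcl13, the chemokine that draws B cells into follicles, measured 652.7, 31.8 and 366.3 in controls and 326.8, 63.3 and 18.1 in CF. An antibody light chain gene segment, Igkv6-23, ranged from 59.2 in CF replicate 3 to 12228.3 in control replicate 1. Adig and Car3, which are expressed in fat cells, Dab2, Srgn, a proteoglycan core of blood cell granules, and Wdr6 complete the list. Cxcl13, Car3, Dab2 and Srgn fell below the floor of 47.6 on some arrays and were raised to it. None of the 8 passed the test between CF and control, their adjusted p-values running from 0.78 to 0.92.

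Macrophages and B cells are main producers of class II molecules, and most of their markers pointed lower in CF. Of 12 tested macrophage markers, 9 pointed lower in CF (median -0.74), 0 were called, and 15 markers on the array summed to 12290 to 18320 in controls and 12180 to 14270 in CF. Cd68, a lysosomal protein of macrophages, measured 1007.8, 514.3 and 750.5 in controls and 432.3, 390.4 and 384.2 in CF (-0.86 ± 0.27, adjusted p = 0.51). All CF values of Cd68 were below all control values, unlike those of the class II genes. Laptm5, a lysosomal protein of blood cells, also did not overlap (-0.71 ± 0.20, adjusted p = 0.43). Tyrobp, an adaptor of myeloid receptors, differed by -0.89 ± 0.38 with overlapping groups. Cd14, a receptor for bacterial lipopolysaccharide, differed by 0.41 ± 0.20, with every CF array above every control. Of the 12, 2 were thus lower and 1 higher without overlap, against 5.62% and 7.37% of all tested probe sets. The defining markers Adgre1, Itgam and Aif1 were too dim to test, with no value above 100.7.

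All 7 tested B cell markers pointed lower in CF (median -0.78), 0 were called, and 13 markers summed to 5772 to 11310 in controls and 3269 to 6890 in CF. Ms4a1, the B cell surface protein CD20, measured 1040.8, 1268.1 and 1294.3 in controls and 609.5, 649.6 and 602.8 in CF (-0.95 ± 0.18, adjusted p = 0.15). It was not low in control replicate 2, the array with the least class II signal. Ighm, the heavy chain of IgM, instead ran with class II, with control levels of 5355, 500.2 and 2422.8 and CF levels of 2473.3, 314.3 and 382.6. Cd37, a surface tetraspanin, and Jchain, the joining chain of antibodies, differed by -0.78 ± 0.35 and -1.08 ± 0.63.

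None of the dendritic or T cell markers passed the test. Of 7 tested dendritic cell markers 5 pointed lower (median -0.10), with 10 markers summing to 3500 to 5356 in controls and 3377 to 3941 in CF. Itgax, the integrin CD11c, differed by -0.25 ± 0.44, and Ccl22, a chemokine of these cells, by -0.42 ± 0.21, with its CF values all below its control values. Cd83 and Batf3 differed by 0.68 ± 0.64 and -0.09 ± 0.20. Only 3 of 12 T cell markers were bright enough to test (median 0.12), and the 12 summed to 1538 to 2164 in controls and 1661 to 2283 in CF. Of these, Cd3e, a chain of the T cell receptor complex, differed by -0.15 ± 0.37, Cd4 by 0.12 ± 0.26 and Il7r by 0.32 ± 0.39. No marker of any list was listed at 0.

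As list averages, fat cell markers kept nearly the same order of arrays as class II, and so did macrophage markers and the interferon gamma genes described below. Not every fat cell marker followed it. Lep was highest in control replicate 2, at 3940.7, and Lipe pointed higher in CF (0.57 ± 0.64). Of 7 tested adipocyte markers 6 pointed lower in CF (median -0.82), and 9 markers summed to 5854 to 15810 in controls and 4797 to 6592 in CF. Adipoq, the fat cell hormone adiponectin, measured 5591, 186.6 and 1898.8 in controls and 720.9, 54.2 and 58.2 in CF (-3.26 ± 1.30, adjusted p = 0.65). Retn and Aoc3 differed by -1.94 ± 0.84 and -1.18 ± 0.44, and Lpl, the lipoprotein lipase, by -0.79 ± 0.42. The 2 tested lymph node stroma markers, Madcam1 and Cxcl13, differed by -1.12 ± 0.44 and -1.18 ± 1.05 (median -1.15), and 5 such markers summed to 1009 to 1384 in controls and 490.4 to 882.3 in CF. The part of macrophage, B cell, fat and lymph node content in the levels of the members was not tested.

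**Figure D4:**
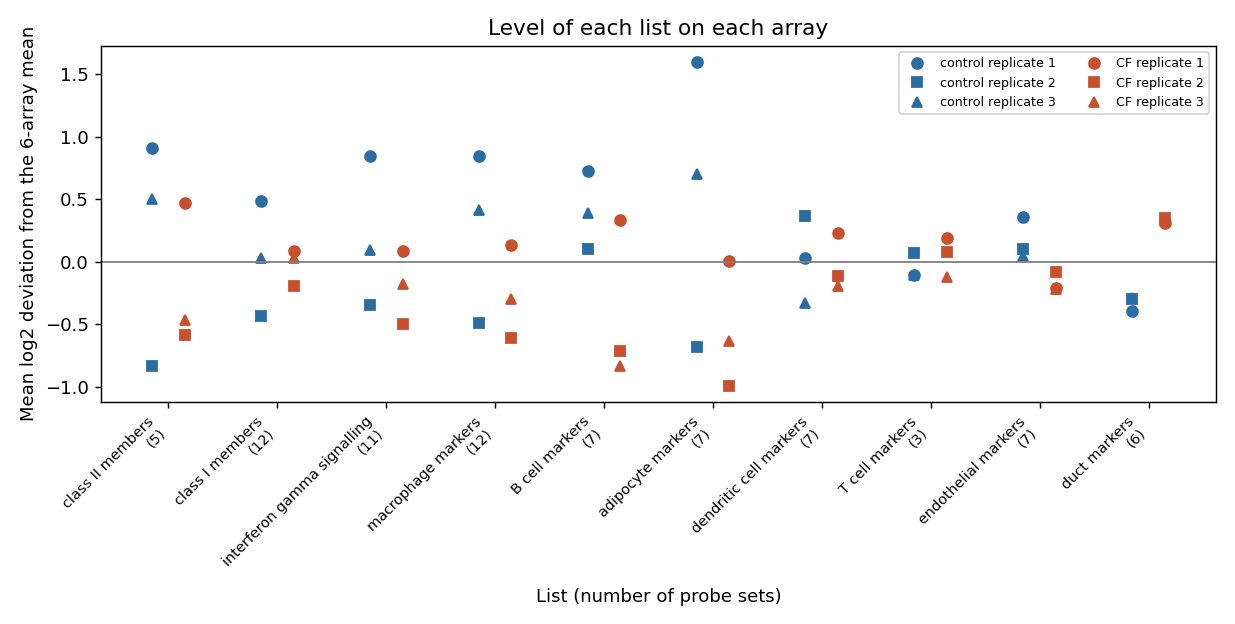
Mean log2 deviation from the mean of the 6 arrays for the members and for marker lists, with the number of tested probe sets of each list in brackets and 1 marker for each array. Control replicate 1 is highest and control replicate 2 low for class II, class I, interferon gamma, macrophage and adipocyte probe sets. The B cell value of control replicate 2 (0.10) is instead above those of CF replicates 2 and 3.

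Interferon gamma signalling and its targets, which induce both pathways, held 11 tested genes. Of these 8 pointed lower in CF (median -0.35), 0 were called, and 17 genes summed to 3627 to 7440 in controls and 3514 to 4397 in CF. On 8 of the 11, control replicate 1 was the highest array. Gbp2 and Gbp3, guanylate-binding proteins of cell defence, differed by -0.77 ± 0.53 and -0.63 ± 0.37, the transcription factor Irf8 by -0.76 ± 0.47 and the GTPase Iigp1 by -0.998 ± 0.745. The groups overlapped for all 11. As a list average these genes kept the same order of arrays as the fat cell and macrophage markers. The part of interferon gamma signalling in the levels of the members was not tested.

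Other genes of antigen presentation were 15 tested of 21 on the array, with 9 lower, 6 higher, 0 called and a median of -0.003. Ciita measured 218.9, 178.6 and 89.9 in controls and 376.2, 120.6 and 120.2 in CF (0.21 ± 0.58, adjusted p = 0.96), with values near the brightness limit on most arrays. H2-Ea, the alpha chain that would pair with H2-Eb1, is not made in black6 mice, whose H2-Ea promoter carries a deletion, and was too dim to test. It read 163.1, 133.1 and 106.8 in controls and 102.1, 91.7 and 86.3 in CF. Ctsl, the endosomal protease cathepsin L, measured 4365.3, 4064.9 and 4634 in controls and 8005.9, 10367 and 6411.8 in CF (0.90 ± 0.19, adjusted p = 0.20), with every CF array above every control. Lgmn, the endosomal protease legumain, differed by 1.70 ± 0.64 (adjusted p = 0.62), and Canx, a chaperone of newly made heavy chains, by 0.30 ± 0.16. Ifi30, a reductase that unfolds proteins for class II presentation, measured 414.1, 358.4 and 523.6 in controls and 280, 333.1 and 293 in CF (-0.50 ± 0.26, adjusted p = 0.72).

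The gland itself read as pancreas on every array. Acinar genes such as Ctrb1, a chymotrypsinogen, measured 91687 to 135426.3, and the 6 tested acinar markers pointed lower by a median of -0.24, with 7 on the array summing to 501100 to 702800 in controls and 472800 to 520900 in CF. Sycn differed by -0.30 ± 0.17, Cela1 by -0.25 ± 0.17, Cela2a by -0.24 ± 0.17 and Ctrb1 by -0.24 ± 0.17. Islet markers had a median of 0.05, and their sum ranged from 19130 to 77420 in controls and from 22310 to 59330 in CF; Ins2, Sst, Ppy and Chga overlapped between groups. Endothelial markers had a median of -0.34 with 6 of 7 lower and sums of 2703 to 3382 against 1949 to 2284, led by Eng (-0.76 ± 0.28) and Emcn (-0.78 ± 0.32), with Tek and Cdh5 at -0.40 and -0.34. Duct markers moved the other way from the members, with 6 of 6 higher in CF (median 0.64) and sums of 12830 to 17070 against 16730 to 19980. Elf3, Krt18, Cldn4 and Epcam differed by 0.92, 0.62, 1.58 and 0.66 and did not pass (adjusted p = 0.11 to 0.67).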

How the data were processed

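Pancreatic RNA of 6 mice was measured on 1-colour Affymetrix arrays. The deposited values are linear intensities for each probe set, and the sources used here do not say by which steps the authors made them. Means without the outer 2% at each end were 500.27 to 500.3 on all arrays, so no further scaling was done. Groups follow the genotype in the labels and replicate numbers the title suffixes (none, B, P as 1, 2, 3). Of 12488 probe sets, 10855 had 1 symbol, 396 several and 1237 none, and 10839 matched RefSeq of GRCm38.p6. Those with several symbols were not named.

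Values were raised to the pooled 20th percentile (47.6) and put on a log2 scale. After removal of the array's 66 control probe sets, 7739 probe sets above the pooled 40th percentile (140.2) on at least 3 arrays were tested with limma 3.58.1 in R 4.3.3 (lmFit, eBayes with an intensity trend, two-sided), with Benjamini-Hochberg adjustment over all of them and a threshold of 0.05. The fit was tested on simulated data.

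The members, lists and tests were chosen with earlier results of these data known. All member probe sets are named, with up to 4 genes of smallest p from each list (1 probe set per gene, the brightest), H2-Ea, Ciita and the 8 genes most correlated with the class II mean. Arrays of the same suffix had deviations from their group means that correlated at 0.23 to 0.26, so the suffix was taken to pair them in the counts of pairs and in an alternative fit. The main fit, which gave the errors, intervals and p-values of the Results, did not use the pairing. Labels state 1 mouse per array, so p-values rest on differences between mice and measurement error together. Alternatives covered scaling, floor, filter, variance model, array weights, the block and leaving out each array.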

Additional observations from a re-analysis of the deposited data

How the results depend on the processing

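No member probe set passed the threshold under any of the 15 alternatives run. Over all probe sets limma called 5, and 10 with the floor at the 40th percentile, 0 with no filter (773 at an unadjusted p under 0.05), 3 with no intensity trend, 12 with array weights, 10 with the title suffix as a replicate block, and 1 to 11 with an array left out. The replicate block changed no member's call. Its lowest adjusted p among members was 0.21, for H2-K1 97700_at, which entered the test through its CF arrays alone. It narrowed the standard error of each tested member, for Cd74 from 0.38 to 0.16 (adjusted p = 0.33) and for B2m from 0.62 to 0.36 (adjusted p = 0.36). Directions turned in 16 of 252 comparisons of a member with an alternative, all with an array left out. The ranges over left-out arrays were -1.07 to 0.30 for H2-Ab1, -0.73 to 0.11 for H2-DMa 93092_at, -0.16 to 0.22 for H2-DMa 162346_f_at, -0.705 to 0.078 for H2-K1 93120_f_at, -0.537 to 0.031 for H2-D1 97540_f_at, -0.711 to 0.029 for H2-D1 101886_f_at, -0.51 to 0.09 for H2-D1 97541_f_at, -0.065 to 1.16 for Tap1 103035_at, -0.47 to 0.01 for Tap1 162278_r_at, -0.434 to 0.028 for Tapbp 162104_f_at and -0.30 to 0.14 for Tapbp 100154_at. In most of these the lowest value came without control replicate 2 and the highest without control replicate 1, and the cause was not tested. The class II median was -0.70 with array weights and -0.33 with quantile normalization. At an unadjusted p under 0.05 there were 8 of 17 members without control replicate 2, against 8.59% of all tested. With the replicate block there were 4 of 17, against 11.7%. There were 3 with array weights (9.56% of all), 2 without control replicate 1 (6.4%) and 1 with any other array left out. Each of these counts includes H2-K1 97700_at, which had to differ. Control replicate 2 was the lowest array on 8 of the 17, and on those its removal could only move the difference toward lower in CF. With 3 arrays a group the 95% interval of H2-Eb1 ran from -2.89 to 1.15, and the dim H2-Aa was tested only with no filter.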

Other observations

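Of the other H2 genes, those named here overlapped between groups except H2-T24. H2-T18, a thymus leukaemia antigen gene, measured 2158.1, 2428 and 3164.8 in controls and 1342, 2876.2 and 1961.3 in CF (-0.38 ± 0.28, adjusted p = 0.82). H2-K2, beside H2-K1 in the complex, measured 4183.9, 1275.5 and 2946.7 in controls and 1934.8, 477.9 and 1717.2 in CF (-1.10 ± 0.57, adjusted p = 0.73), lower in each pair of replicates. H2-M1 ranged from 114.7 to 1861.2 within the control arrays and from 543.2 to 1097.3 in CF. H2-Q4 and H2-Q5 differed by -0.11 ± 0.33 and 0.08 ± 0.47. H2-T24, too dim to test, measured 154.3, 187 and 111 in controls and 93.9, 58.9 and 88.8 in CF. These genes were chosen after their values were seen, and their probe sets may read related class I transcripts.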
